A study of Saccharomyces cerevisiae with 18 samples.

Results

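The natural alleles of PHO23 from the strains T73 and CLIB215 of Saccharomyces cerevisiae were compared in a common background, the laboratory haploid BY4741. One strain carried the T73 allele in place of its own PHO23 and the other the CLIB215 allele. Both were grown in rich medium (YP) with xylulose, a pentose sugar, from an initial OD of 0.1, and log-phase cells were harvested for sequencing of polyadenylated RNA with molecular identifiers. The comparison covers 4956 of the 6650 named ORFs of the deposited table, namely those with a value in all 6 of its columns. Each column stands for 1 strain. Besides the pair of PHO23 allele strains, the columns are titled as BY4741 with PHO23 deleted, with RXT3 deleted, with the RXT3 allele of T73 and with the RXT3 allele of CLIB215. As far as the labels say, the RXT3 strains keep the PHO23 gene of BY4741 and the PHO23 strains keep its RXT3 gene. Unmodified BY4741 is not analysed here.

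The labels list 3 libraries for each strain, but the table holds 1 column per strain, which is treated as a pooled value. There is thus no spread between replicates, no test could be made, and no difference below has a replicate check. Values are centred log values, taken as log2 since the table does not state a base, so a value says how an ORF stood in one column relative to its own centre and not how strongly it was expressed. A difference is the T73 value minus the CLIB215 value, in log units. A difference of at least 1 unit, a doubling if the base is 2, is counted as a description, and "higher" or "lower" refers to the strain with the T73 allele. For 3 of the other columns the title and the genotype field of the labels name different strains; titles are used here, and both fields name the PHO23 T73 and CLIB215 columns alike. RNA came from whole cultures, in which fewer cells of a type and less RNA per cell cannot be told apart.

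Pho23 is a subunit of the large Rpd3 histone deacetylase complex, Rpd3L, and carries a PHD finger, a domain that binds the tail of histone H3. Rpd3L is brought to promoters by DNA-binding partners such as Ume6 and Ash1, where it removes acetyl groups from histones and mostly lowers transcription. The gene takes its name from phosphate metabolism, where its loss is known to alter expression of the acid phosphatase gene PHO5. On carbon sources such as ethanol or acetate, budding yeast makes sugar phosphates by gluconeogenesis and feeds it from acetyl-CoA through the glyoxylate cycle. Xylulose, the sugar used here, enters through the pentose phosphate pathway. Genes for ribosome assembly are transcribed in step with growth.

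Across the 4956 ORFs the median difference was 0.06, the quartiles were −0.30 and 0.40, and 2708 ORFs (54.6%) lay above 0. By the size rule 220 ORFs (4.44% of those compared) were higher and 216 (4.36%) were lower, together 436 (8.8%). The extremes were not symmetric. Of the 19 ORFs that differed by at least 2 units, 15 were higher and 4 were lower, and the differences ran from −2.39 to 4.04. The T73 column was narrower than the CLIB215 column, with an SD across ORFs of 0.309 for T73, against 0.422 for CLIB215. Of the 220 higher ORFs, 71 (32.3%) belong to at least 1 of the 60 gene lists used here, and of the 216 lower ORFs 97 (44.9%) do, so a large part of both sets is not described by any list.

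**Figure D1:**
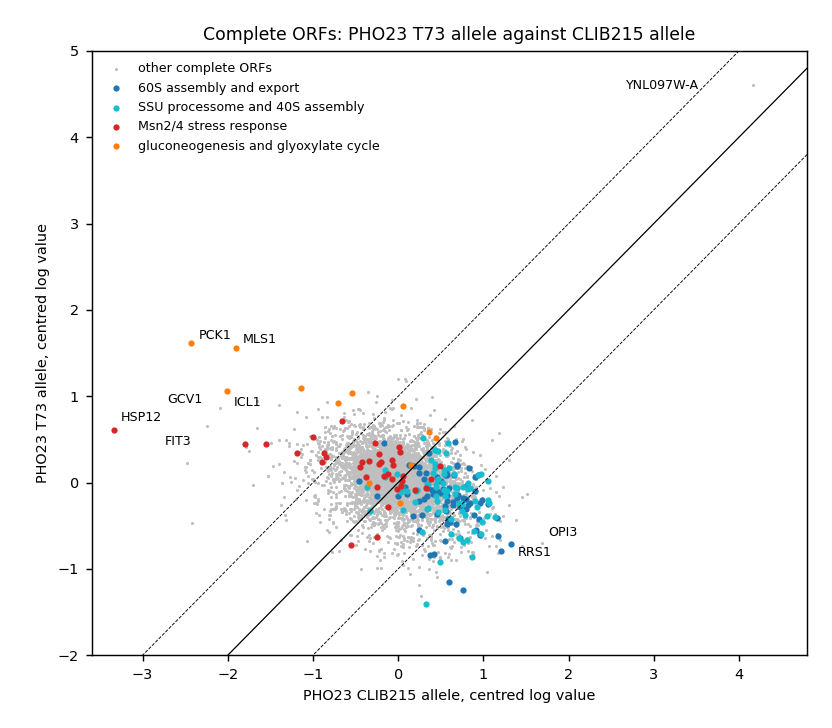
Each point is 1 of the 4956 ORFs, with its centred log value in the PHO23 T73 column (vertical axis) and in the PHO23 CLIB215 column (horizontal axis); the solid line marks equal values and the dashed lines a difference of 1 unit. PCK1 (1.62 with T73, −2.43 with CLIB215) and HSP12 (0.61 with T73, −3.34 with CLIB215) stand far to the left, ribosome assembly genes gather on the lower right, and YNL097W-A stands alone at 4.61 and 4.16.

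The exchanged locus was examined first. PHO23 (YNL097C, chromosome XIV, 441366 to 442358, minus strand, R64) stood at 0.35 in the T73 strain and −0.88 in the CLIB215 strain, a difference of 1.23. It had no value in the column titled PHO23 deleted and is therefore not among the 4956 ORFs. The T73 strain was thus the higher one of the pair at the exchanged gene itself. In the columns titled RXT3 deleted, RXT3 T73 and RXT3 CLIB215, PHO23 stood at 0.12, −0.07 and −0.61. Its value thus also varied among columns whose titles name no change at PHO23. Reads were aligned to R64, and whether the allele sequences affected the values of PHO23 was not tested.

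The ORF with the most extreme value in both columns was YNL097W-A, whose systematic name places it beside PHO23 on the other strand and which is not in the annotation used. Its values were 4.61 for T73 and 4.16 for CLIB215. In the columns titled PHO23 deleted, RXT3 deleted, RXT3 T73 and RXT3 CLIB215 its values were −2.97, −1.77, −1.11 and −1.51. Both allele strains were thus far above every other column, by at least 5.27 units, and the next highest ORF reached 1.62 in the T73 column and 1.70 in the CLIB215 column. Between the alleles YNL097W-A differed by 0.45, under the size rule. PHO23 itself stood at 0.35 with T73 and −0.88 with CLIB215, and between −0.61 and 0.12 in the RXT3 columns. Whether reads were counted by strand is not given in the sources used here. Whether reads of PHO23 entered the values of YNL097W-A was not tested.

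The genes around PHO23 differed about as much as genes elsewhere. Within 10 kb, 7 of 11 annotated neighbours were complete. None of them passed the size rule, which 8.8% of all ORFs did, and 3 of the 7 (42.9%) differed by over 0.5 units, against 34.6% of all ORFs. The farthest were POL1, the catalytic subunit of DNA polymerase alpha, at −0.84, and the putative phosphatase gene OCA1 at 0.79. RAS2, which codes for a Ras GTPase and lies next to PHO23 but for a small ORF, stood at 0.07 for T73 and 0.06 for CLIB215.

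In the strain with the T73 allele most genes of the glyoxylate cycle and gluconeogenesis lay above 0. Of the 12 listed, all complete, 11 did and 6 were higher by the size rule (50%, against 4.44% of all ORFs), none was lower by the rule, and the median difference was 1.20, against 0.06 over all ORFs. PCK1, which codes for phosphoenolpyruvate carboxykinase, had a value of 1.62 with T73 and −2.43 with CLIB215. MLS1, the malate synthase gene, had 1.56 with T73 and −1.90 with CLIB215. For ICL1, the isocitrate lyase gene, the values were 1.07 with T73 and −2.01 with CLIB215. In all 3 cases the CLIB215 value lay farther from the centre than the T73 value. The column titled PHO23 deleted was also low for PCK1 (−2.23), MLS1 (−1.89) and ICL1 (−1.60). FBP1, coding for fructose-1,6-bisphosphatase, stood at 1.09 with T73 and −1.14 with CLIB215, and its difference was 2.23. IDP2, a cytosolic isocitrate dehydrogenase gene, stood at 0.92 with T73 and −0.71 with CLIB215, and SFC1, the mitochondrial succinate-fumarate carrier gene, at 1.04 with T73 and −0.54 with CLIB215. The cytosolic malate dehydrogenase gene MDH2 differed by 0.83, just under the rule.

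The list divided. The genes that passed the rule were PCK1, MLS1, ICL1, FBP1, IDP2 and SFC1, and MDH2 came under it at 0.83. The pyruvate carboxylase genes PYC1 (0.05) and PYC2 (0.33), the malic enzyme gene MAE1 (0.23), the second malate synthase gene DAL7 (0.07) and ICL2 (−0.26), which codes for the mitochondrial 2-methylisocitrate lyase, all differed by less than 0.5. Pyruvate carboxylase has further uses beside gluconeogenesis, and DAL7 is known from allantoin use. Whether function bears on which genes passed was not tested.

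Promoter stretches of the 4 leading genes are shown because they hold the carbon source element, the site bound by Cat8 and Sip4. A loose form of it, CCNNNNNNCCG, was searched on both strands in the 600 bases before each start codon of the R64 reference; its fixed bases are in capitals, and each stretch is written on the gene's own strand. They are reference sequences, not sequences of the edited strains.
PCK1 (chrXI:630582-630701, plus strand): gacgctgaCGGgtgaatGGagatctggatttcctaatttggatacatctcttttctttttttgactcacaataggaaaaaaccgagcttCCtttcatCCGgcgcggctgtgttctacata
MLS1 (chrXIV:405818-405937, plus strand): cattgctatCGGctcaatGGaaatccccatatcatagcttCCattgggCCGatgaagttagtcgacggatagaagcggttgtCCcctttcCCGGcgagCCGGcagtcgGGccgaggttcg
ICL1 (chrV:287275-287334, minus strand): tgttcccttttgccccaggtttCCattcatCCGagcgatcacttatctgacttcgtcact
FBP1 (chrXII:875208-875307, minus strand): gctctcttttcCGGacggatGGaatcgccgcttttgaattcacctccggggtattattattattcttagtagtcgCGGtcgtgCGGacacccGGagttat

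The loose motif occurred in 8 of 12 promoters of the list (66.7%), in 30% of those of the higher ORFs and in 24.6% of all 4858 promoters. Within the list the 8 genes with the motif had a median difference of 1.92 and the 4 without it 0.15. Over all promoters the median was 0.05 with the motif and 0.06 without it. The promoters of large-subunit ribosomal protein genes, whose median difference was −0.40, held it in 39.5%. A match is a description of letters and not of a bound site.

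Other genes of acetyl-CoA and acetate use went both ways. Of 19 complete genes, 11 lay above 0, 2 were higher (10.5%, against 4.44% of all ORFs) and 3 lower (15.8%, against 4.36%) by the size rule, and the median was 0.09. JEN1, the lactate and pyruvate permease gene, stood at 0.30 with T73 and −0.91 with CLIB215, and ADH2, the alcohol dehydrogenase gene of ethanol use, at 0.67 with T73 and −0.52 with CLIB215. In the other direction ACS1, an acetyl-CoA synthetase gene, stood at −0.39 with T73 and 1.23 with CLIB215. CAT2, the carnitine acetyltransferase gene, stood at −0.06 with T73 and 1.23 with CLIB215. For ACS1 and CAT2 it was the CLIB215 column that stood apart, at about the level of the column titled PHO23 deleted (1.15 and 1.11). For CIT2, the peroxisomal citrate synthase gene, it was the T73 column, at −1.06 with T73, 0.14 with CLIB215 and between −0.28 and 0.59 in the other columns.

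**Figure D2:**
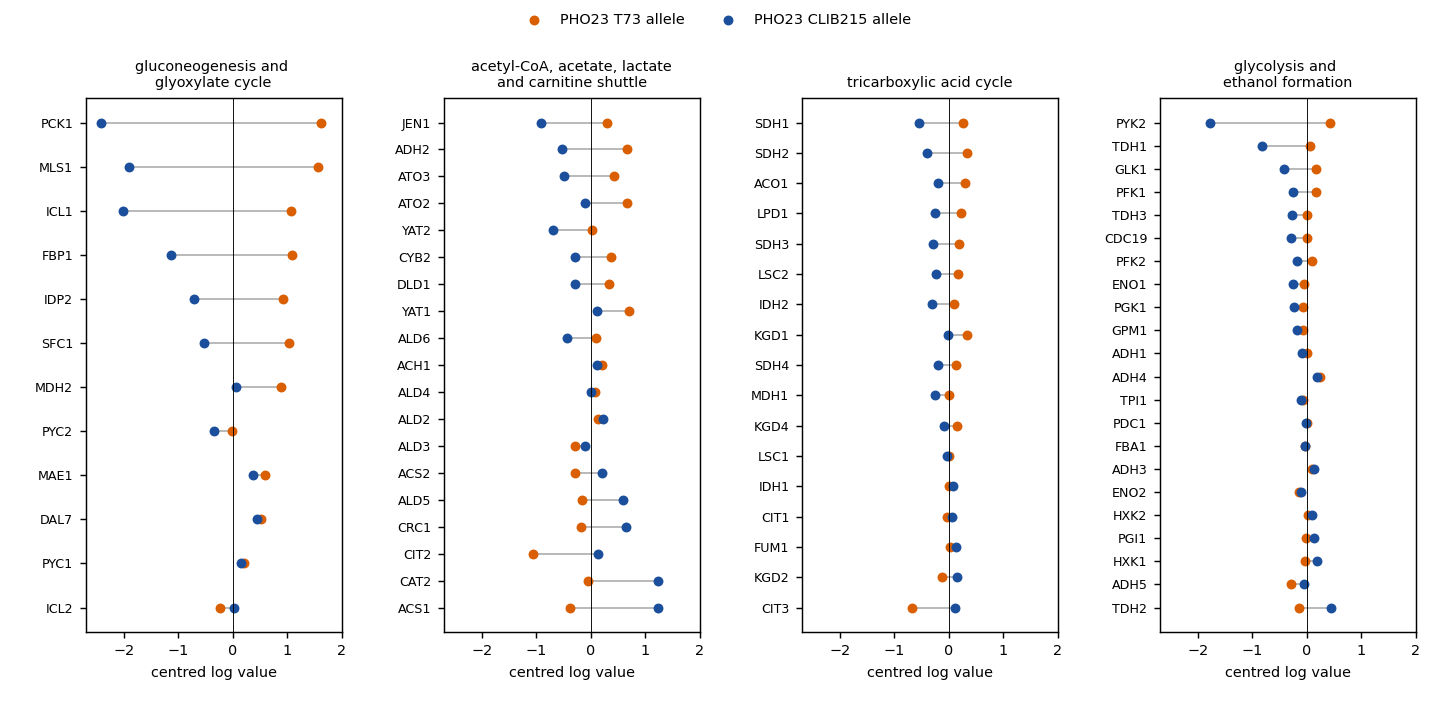
Centred log values of complete genes of 4 lists of carbon metabolism in the PHO23 T73 column (orange) and the PHO23 CLIB215 column (blue), joined by a line and ordered by the difference. Long lines occur for PCK1, MLS1, ICL1, FBP1 and PYK2 with the T73 point on the right, and for ACS1, CAT2 and CIT2 with it on the left, while most genes of glycolysis and the tricarboxylic acid cycle have short lines.

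The genes of glycolysis differed little. Over 22 complete genes the median was 0.07, and 1 was higher by the rule (4.55%, against 4.44% of all ORFs). It was PYK2, the minor pyruvate kinase gene, at 0.42 with T73 and −1.78 with CLIB215. The main pyruvate kinase gene CDC19 and most other genes of the list lay within 0.5 units. TDH1 differed by 0.89, but the TDH genes are near-identical copies whose reads may have been shared. In the tricarboxylic acid cycle 12 of 18 genes lay above 0, with a median of 0.29, and none was higher by the rule. The succinate dehydrogenase genes SDH1 (0.82) and SDH2 (0.73) led this list, and CIT3, a minor mitochondrial citrate synthase gene, stood at −0.67 with T73 and 0.11 with CLIB215.

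The pentose phosphate pathway, through which xylulose enters metabolism, also divided. Of 17 complete genes 8 lay above 0, 3 were higher (17.6%, against 4.44% of all ORFs), none was lower by the rule (against 4.36%), and the median was −0.22. The higher ones each have a paralog in the pathway. SOL4, a 6-phosphogluconolactonase gene, stood at 0.80 with T73 and −0.63 with CLIB215. NQM1, a transaldolase gene, stood at 0.18 with T73 and −1.09 with CLIB215, and GND2, a 6-phosphogluconate dehydrogenase gene, at 0.13 with T73 and −0.98 with CLIB215. Of these paralogs SOL3 (−0.67) and GND1 (−0.49) lay below 0, and TAL1 stood at 0.13. Also below 0 were RKI1 (−0.57), the ribose-5-phosphate ketol-isomerase gene, RPE1 (−0.36), the epimerase gene, and TKL1 (−0.22), the main transketolase gene. XKS1, the xylulokinase gene, differed by 0.08, with 0.32 for T73 and 0.24 for CLIB215.

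Respiratory chain genes lay together above 0, by less than the size rule. All 17 complete genes of the ATP synthase lay above 0, from 0.11 to 0.94, with a median of 0.42. Complex III and cytochrome c had 10 of 11 above 0 and a median of 0.46, and complex IV 8 of 10 and a median of 0.40. Of these 38 genes together 35 lay above 0 and 1 passed the rule, 2.63%, below the 4.44% over all ORFs. That gene was COX26, which codes for a small complex IV subunit, at 0.46 with T73 and −1.28 with CLIB215. Below 0 were COX5B (−0.47) and CYC7 (−0.30), the genes for the hypoxic forms of subunit V and of cytochrome c, and COX6 (−0.01), while their aerobic counterparts COX5A and CYC1 stood at 0.39 and 0.15. CCAAT, the core of the site bound by the Hap complex and searched on both strands in 300 bases, occurred in 94.1% of ATP synthase promoters, in 63.6% of those of complex III and cytochrome c, in 41% of those of the higher ORFs and in 42.9% of all promoters. Over all promoters the median difference was 0.07 with it and 0.05 without it. Of the Hap subunits, HAP2 stood at 0.58 with T73 and −0.80 with CLIB215, whereas HAP3 (−0.17), HAP4 (−0.01) and HAP5 (−0.44) were near or below 0. HAP1, a heme-dependent activator gene that is disrupted in laboratory strains, stood at 0.76 with T73 and −0.64 with CLIB215.

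Genes of the general stress response lay mostly above 0. Of 36 complete genes 26 lay above 0, 9 were higher (25%, against 4.44% of all ORFs), none was lower by the rule, and the median was 0.37. HSP12, a membrane-associated small heat-shock protein gene, stood at 0.61 with T73 and −3.34 with CLIB215, the lowest value of any ORF in that column. DDR2, a stress-induced gene of uncertain function, stood at 0.44 with T73 and −1.80 with CLIB215. GPX1, a glutathione peroxidase gene, stood at 0.44 with T73 and −1.55 with CLIB215. In each of these the T73 value lay within 0.7 units of the centre and the CLIB215 value at least 1.5 units below it. The column titled PHO23 deleted was also low for HSP12 (−3.59), DDR2 (−1.48) and GPX1 (−1.34). The cytosolic catalase gene CTT1 (0.53 with T73, −1.0 with CLIB215) and the Hsp70 gene SSA4 (0.34 with T73, −1.19 with CLIB215) followed, then GPD1 of glycerol synthesis at 1.37, HSP26 at 1.22, HOR7 at 1.14 and DCS2 at 1.13.
HSP12 (chrVI:107011-107090, plus strand): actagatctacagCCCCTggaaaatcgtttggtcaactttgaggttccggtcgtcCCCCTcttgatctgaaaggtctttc
DDR2 (chrXV:231916-232015, minus strand): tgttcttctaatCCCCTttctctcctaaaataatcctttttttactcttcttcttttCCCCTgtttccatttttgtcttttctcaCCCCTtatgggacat
Capitals mark the stress response element AGGGG, here on the other strand, which Msn2 and Msn4 bind. It was found in the 300 bases before the start codon in 80.6% of the list's promoters, 30.9% of those of the higher ORFs and 23% of all promoters. Within the list the 29 genes with the element had a median difference of 0.44 and the others 0.12. Over all promoters the median was 0.12 with the element and 0.03 without it.

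Reserve carbohydrate and cell wall genes also lay mostly above 0. Of 20 genes of trehalose and glycogen 16 lay above 0, 2 were higher (10%, against 4.44% of all ORFs) and 1 lower by the rule (5%, against 4.36%), and the median was 0.32. The trehalose-6-phosphate synthase gene TPS1 stood at 0.46 with T73 and −0.88 with CLIB215, PIG2, coding for a putative phosphatase subunit that binds glycogen synthase, at 0.21 with T73 and −1.40 with CLIB215, and the phosphoglucomutase gene PGM1 at −0.48 with T73 and 0.82 with CLIB215. Of 38 complete cell wall genes 31 lay above 0, with a median of 0.41, and 3 were higher by the rule (7.89%, against 4.44% of all ORFs). CWP1, a mannoprotein gene, stood at 0.94 with T73 and −1.65 with CLIB215, TIP1 at 0.43 with T73 and −1.12 with CLIB215, and EGT2, which acts in cell separation, at 0.22 with T73 and −1.03 with CLIB215. CRH1, a chitin transglycosylase gene, was the only one lower by the rule (2.63%, against 4.36% of all ORFs), at −1.0. The list is incomplete, since 13 of its 51 genes lack a value in at least 1 column.

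Single-carbon, cofactor and metal genes included several of the farthest differences. Of the genes of the glycine cleavage complex GCV1 and GCV2 were higher by the rule, and GCV3 and LPD1 lay above 0 under it. GCV1 stood at 0.86 with T73 and −2.09 with CLIB215, GCV2 at 0.63 with T73 and −1.66 with CLIB215, and GCV3 at 0.40 with T73 and −0.57 with CLIB215. LPD1, whose product the complex shares with other dehydrogenases, differed by 0.49. SHM2, the cytosolic serine hydroxymethyltransferase gene, stood at 0.75 with T73 and −0.89 with CLIB215, while the mitochondrial SHM1 differed by −0.15. On the folate side FOL1 (−0.90 with T73, 0.63 with CLIB215) and the dihydrofolate reductase gene DFR1 (−1.0 with T73, 0.36 with CLIB215) were lower, and the median of the 22 genes was 0.11. By the rule 3 of the 22 were higher (13.6%, against 4.44% of all ORFs) and 2 lower (9.09%, against 4.36%). The NAD synthesis genes had 13 of 16 above 0 and a median of 0.38. BNA5, coding for kynureninase, stood at 0.22 with T73 and −2.47 with CLIB215. It was the only one of them past the rule (6.25%, against 4.44% of all ORFs).

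In the iron regulon 24 of 34 genes were complete, 15 of these lay above 0 (62.5%, against 54.6% of all ORFs) and 5 were higher (20.8%, against 4.44%), with a median of 0.23. FIT3, a cell wall mannoprotein that helps retain siderophore iron, stood at 0.66 with T73 and −2.24 with CLIB215, and its neighbour and paralog FIT2 at 0.25 with T73 and −1.23 with CLIB215; reads could be shared between them. COT1, a vacuolar zinc and cobalt transporter gene, differed by 1.82, ECM4 by 1.37 and CTH1 by 1.11. The high-affinity uptake genes were less far apart, with FTR1 at 0.78 and FET3 at 0.26, and the regulator gene AFT1 at −0.64. FIT1 had a value of 0.76 with T73 and none with CLIB215.
FIT3 (chrXV:1061226-1061350, minus strand): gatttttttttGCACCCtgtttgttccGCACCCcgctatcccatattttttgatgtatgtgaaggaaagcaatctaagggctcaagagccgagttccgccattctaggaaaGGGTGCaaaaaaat
The stretch shows 3 copies of GCACCC, the core of the site bound by Aft1, in capitals on both strands. Within 600 bases this motif occurred in 70.8% of the list's promoters, in 12.9% of those of the higher ORFs and in 9.0% of all promoters. The listed genes with it had a median difference of 0.22 and those without it 0.27.

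Among transport genes, 4 of 20 drug resistance transporters were higher, or 20%, against 4.44% of all ORFs, and none was lower by the rule. TPO1 differed by 2.01, TPO4 by 1.63, PDR12 by 1.24 and YOR1 by 1.09. The copper metallothionein genes CUP1-1 and CUP1-2 had identical values in the table, 0.07 with T73 and −1.53 with CLIB215, and are 1 measurement. Of the hexose transporter and sugar sensor genes 8 of 20 were complete, with a median of 0.57 and none past the rule. HXT7 (0.91) and HXT6 (0.71) were the farthest, and they are near-identical.

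The mating genes were mostly above 0 and mostly under the size rule. Of 22 complete pheromone genes 18 lay above 0, with a median of 0.39. PRM4 (0.06 with T73, −1.21 with CLIB215) was the only one past it (4.55%, near the 4.44% of all ORFs). Of 11 a-specific genes 8 lay above 0 with a median of 0.36. STE6, the exporter of a-factor, stood at 0.44 with T73 and −0.82 with CLIB215. It was the only member past the rule (9.09%, against 4.44% of all ORFs). The pheromone regulator gene SST2 was the lowest of its list at −0.79. Meiotic genes, a known set of targets of Ume6 and Rpd3L, could scarcely be compared, since 17 of 61 were complete. Their median was −0.02, with SPS19 (1.17), SPO14 (1.02) and SPS18 (1.01) past the rule, 17.6% of the 17, against 4.44% of all ORFs.

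**Figure D3:**
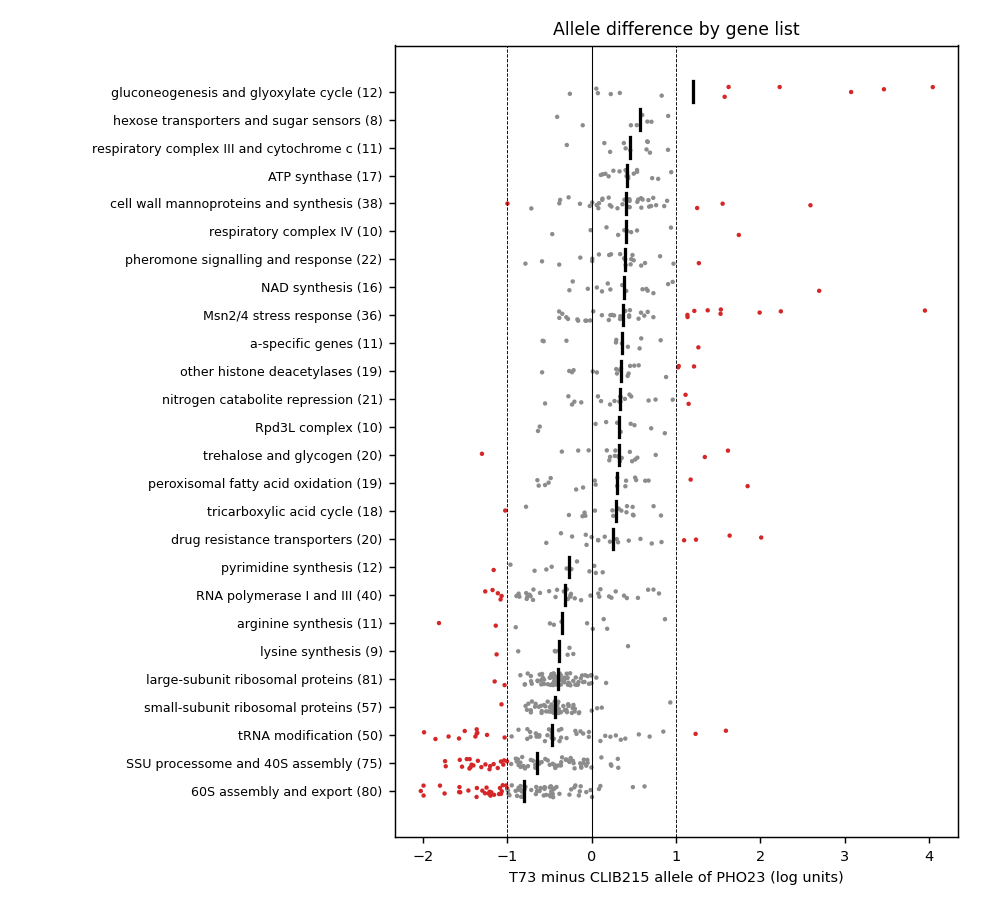
Difference of each complete gene (points), T73 minus CLIB215 allele, for lists of at least 8 complete genes with a median of at least 0.25 in size; black bars are medians, numbers of genes are in brackets, dashed lines mark the size rule and red points lie past it. The medians run from 1.20 for gluconeogenesis and the glyoxylate cycle to −0.81 for assembly of the large ribosomal subunit, and ribosomal protein genes form a tight group below 0 with 3 of 138 past the rule.

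Genes for building ribosomes lay mostly below 0, and many were lower with the T73 allele by the size rule. Of 154 complete genes for assembly of either subunit 144 lay below 0, 47 were lower (30.5%, against 4.36% of all ORFs), none was higher by the rule, and the median was −0.68. They made up 21.8% of all ORFs lower by the rule. Assembly of the large (60S) subunit had the lowest median of all lists, −0.81 over 80 genes, with 26 lower (32.5%). The small-subunit processome and 40S assembly had a median of −0.65 over 75 genes, with 21 lower (28%).

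Large-subunit factors led. RRS1, needed to bring the 5S particle into the ribosome, stood at −0.71 with T73 and 1.32 with CLIB215. ECM1, an export factor of the pre-60S particle, stood at −0.79 with T73 and 1.20 with CLIB215, and RIX1 of the Rix1 complex at −1.24 with T73 and 0.76 with CLIB215. In all 3 the T73 and CLIB215 values lay on opposite sides of the centre, at least 0.7 units from it. NOP8 differed by −1.80, URB2 by −1.75, RRB1 by −1.57, RSA4 by −1.57 and IPI1, another member of the Rix1 complex, by −1.56. RSA1, also known from the assembly of box C/D particles, was the farthest in the other direction at 0.63.

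On the small-subunit side MPP10, a core protein of the processome, stood at −1.41 with T73, the lowest value in that column, and 0.33 with CLIB215. RRT14 stood at −0.86 with T73 and 0.87 with CLIB215, and UTP11 at −0.60 with T73 and 0.97 with CLIB215. Further down were the nucleolin gene NSR1 at −1.54, the 25S rRNA methyltransferase gene RRP8 at −1.48, FAF1 at −1.45, the helicase gene ROK1 at −1.45, FCF2 at −1.44 and KRR1 at −1.43.

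Stretches of 4 promoters are shown because they hold both motifs typical of ribosome assembly genes, PAC (GATGAG), bound by Dot6 and Tod6, and RRPE (AAAAATTT), bound by Stb3. Dot6, Tod6 and Stb3 are known partners of Rpd3L. Capitals mark both motifs on either strand.
RRS1 (chrXV:868190-868249, plus strand): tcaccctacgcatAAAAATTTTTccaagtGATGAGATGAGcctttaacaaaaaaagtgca
ECM1 (chrI:36439-36498, plus strand): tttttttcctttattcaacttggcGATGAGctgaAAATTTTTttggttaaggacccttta
NOP8 (chrXV:52963-53022, plus strand): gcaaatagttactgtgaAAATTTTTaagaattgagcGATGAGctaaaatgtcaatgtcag
NSR1 (chrVII:807822-807881, minus strand): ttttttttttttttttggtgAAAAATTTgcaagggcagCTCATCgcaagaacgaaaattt

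Within 300 bases of the start codon PAC occurred in 50.2% of the promoters of the lower ORFs, in 10.6% of those of the higher ORFs and in 18.9% of all promoters. RRPE occurred in 36.2% of the lower, 8.76% of the higher and 16.5% of all. The 312 ORFs with both had a median difference of −0.46, and 257 of them (82.4%) lay below 0. By the rule 62 were lower (19.9%, against 4.36% of all ORFs) and 3 higher (0.96%, against 4.44%). With PAC alone (606 ORFs) the median was −0.05, with RRPE alone (489 ORFs) 0.08, and with neither (3451 ORFs) 0.11. The median was thus lower for the pair than for either motif alone.

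Many of these ORFs are on the ribosome assembly lists, whose promoters mostly hold the motifs (PAC in 83.8% and RRPE in 81.2% of the large-subunit assembly genes). Outside the 6 lists of ribosome assembly, ribosomal proteins, RNA polymerases I and III and tRNA modification, 174 ORFs held both motifs. Their median was −0.23, and 126 (72.4%) lay below 0. By the rule 19 were lower (10.9%, against 4.36% of all ORFs) and 3 higher (1.72%, against 4.44%). Outside the same lists 3316 ORFs with neither motif had a median of 0.13. The lowest of these 174 were GFD2 at −2.08, RTP1, a factor for import of RNA polymerase II, at −1.81, PRP43, a helicase gene of splicing and ribosome assembly, at −1.58, the arginine methyltransferase gene RMT2 at −1.56 and the La protein gene LHP1 at −1.43. These 5 were picked for their low values. Of the 20 lowest named genes 14 held at least 1 of the motifs, and of the 20 highest 2 did, against 1407 of all 4858 promoters (29%).

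Of the genes for the proteins that bind these sites, DOT6 stood at 0.17 with T73 and 0.01 with CLIB215, and STB3 at 0.33 with T73 and 0.04 with CLIB215. TOD6 had no value with T73 and 0.26 with CLIB215, so no difference can be given. DOT6, STB3 and TOD6 were looked up after the motif result was seen.

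**Figure D4:**
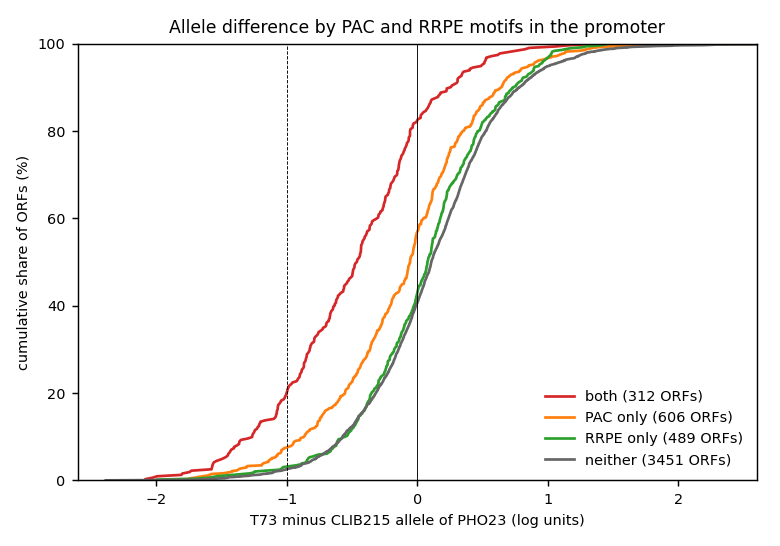
Cumulative share of ORFs (vertical axis, %) against the difference between the T73 and the CLIB215 allele (horizontal axis, log units) for promoters with both PAC and RRPE, PAC only, RRPE only or neither; the dashed line marks −1. The curve of the 312 ORFs with both lies to the left of the others, with 82.4% below 0, against 40.7% of the 3451 ORFs with neither.

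Other parts of the translation machinery lay below 0 by less. Of 50 complete tRNA modification genes 39 lay below 0, 11 were lower (22%, against 4.36% of all ORFs) and 2 higher, and the median was −0.48. TRM2, a tRNA methyltransferase gene, stood at −0.82 with T73 and 1.17 with CLIB215, TRM11 at −0.66 with T73 and 1.19 with CLIB215, and the dihydrouridine synthase gene SMM1 at −0.85 with T73 and 0.84 with CLIB215. The 2 higher ones, RIB2 (1.59), which also acts in riboflavin synthesis, and TRM5 (1.23), are 4% of the list, near the 4.44% of all ORFs. The subunits and factors of RNA polymerases I and III had 28 of 40 below 0, 5 lower (12.5%, against 4.36%) and a median of −0.31. RPC34 at −1.26, RRN6 at −1.18, RPC17 at −1.11, RRN3 at −1.08 and RET1 at −1.07 passed the rule. MAF1, which codes for a repressor of RNA polymerase III, stood at 0.67.

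The ribosomal protein genes lay mostly below 0 by less than the size rule. Of 138 genes 133 lay below 0, with a median of −0.41, and 3 (2.17%) were lower by the rule, a smaller share than the 4.36% of all ORFs. The differences ran from −1.15 to 0.93, and RPS28B was the highest of the 5 above 0. PAC occurred in 9.88% of large-subunit and 14% of small-subunit ribosomal protein promoters, both below the share of all promoters. Many of these genes are near-identical pairs between which reads could be shared. Of the genes of the mitochondrial ribosome 43 of 70 lay above 0 (61.4%, against 54.6% of all ORFs) with a median of 0.18, and the translation factors had a median of −0.01.

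Outside translation, single genes of phospholipid, phosphate and cell cycle pathways were lower by the rule while the medians of their lists lay at or above 0. OPI3, which codes for the last methyltransferase of phosphatidylcholine synthesis, stood at −0.70 with T73 and 1.69 with CLIB215 and had the lowest difference of all complete ORFs. The phospholipid and inositol list as a whole had a median of 0.10 over 28 genes. By the rule 1 was lower and 1 higher (3.57% each, against 4.36% and 4.44% of all ORFs). CHO2, the preceding methyltransferase gene, differed by −0.39. INO1, coding for inositol-3-phosphate synthase, had −0.85 with T73 and 0.29 with CLIB215, but lacked a value in 1 other column and is not among the 4956.
OPI3 (chrX:573061-573160, minus strand): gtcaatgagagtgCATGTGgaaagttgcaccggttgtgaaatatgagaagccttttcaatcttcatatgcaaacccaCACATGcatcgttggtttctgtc
Capitals mark CATGTG, the core of the element bound by Ino2 and Ino4, on both strands. It occurred in 42.9% of the list's promoters and 6.50% of all promoters, and the listed genes with it had a median of −0.14, those without it 0.15. Over all promoters the median was 0.03 with it and 0.06 without it. MOG1, which lies 159 bases from OPI3 on the other strand, stood at −0.80 with T73 and 0.87 with CLIB215, so that the divergent pair went the same way. The part of the stretch farther from OPI3, with the copy written CATGTG, lies inside the MOG1 ORF. The copy written CACATG lies between the genes.

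PHO5, the repressible acid phosphatase gene, stood at −0.13 with T73 and 1.52 with CLIB215, a difference of −1.65. In the column titled PHO23 deleted it stood at 0.75, and in the RXT3 columns between −0.5 and −0.36, so that the CLIB215 column was the highest. The gene for its activator, PHO4, differed by 0.85, that of the cyclin PHO80 by 0.89 and that of the kinase PHO85 by 0.68. The vacuolar phosphatase gene PHO8 stood at −0.77 and the kinase inhibitor gene PHO81 at −0.5. The phosphate list had 17 of 26 genes complete, 9 above and 8 below 0, and a median of 0.01. The phosphate permease gene PHO84 had 0.34 with T73 and no value with CLIB215.

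CAR1, the arginase gene, stood at −0.43 with T73 and 1.38 with CLIB215, and ARG1, of arginine synthesis, at −0.07 with T73 and 1.07 with CLIB215. LYS1 differed by −1.13 and URA1, of pyrimidine synthesis, by −1.16. The lists of these genes lay below 0 as a whole. The arginine list had 7 of 11 genes below 0 and a median of −0.36, the lysine list 8 of 9 and −0.39, and the pyrimidine list 9 of 12 and −0.27. Among other genes the sterol deacetylase gene SAY1 differed by −1.62 and the biotin synthase gene BIO2 by −1.70. CLN2, a G1 cyclin gene, stood at −0.81 with T73 and 0.87 with CLIB215, while the 23 cyclin and cell cycle genes had a median of 0.20. RAS1, a Ras GTPase gene, stood at −0.73 with T73 and 1.15 with CLIB215. RAS1 was the only one of 20 genes of the Ras and protein kinase A pathway past the rule (5%, against 8.8% of all ORFs in either direction). RAS2 did not share its difference. In DNA replication POL3 (−1.54), ORC6 (−1.5) and RFA3 (−1.0) were lower (6.67% of the list, against 4.36% of all ORFs) and CTF4 (1.41) was higher, with 34 of 45 genes below 0 and a median of −0.16.

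The genes of the complex that Pho23 belongs to were near or somewhat above 0. Of 10 complete genes of Rpd3L 8 lay above 0, with a median of 0.32, and none passed the rule. RPD3, the catalytic subunit gene, stood at 0.13 with T73 and −0.33 with CLIB215. SIN3, the scaffold gene, stood at 0.14 with T73 and −0.16 with CLIB215, and RXT3 at 0.14 with T73 and −0.36 with CLIB215. DEP1 (0.87) and ASH1 (0.70) were the highest and UME6 (−0.64) and SAP30 (−0.62) the lowest, while UME1 (0.34), RXT2 (0.17) and CTI6 (0.04) lay between. SDS3 had no value in either column. Among 19 genes of other histone deacetylases and their partners, 3 were higher by the rule (15.8%, against 4.44% of all ORFs). TUP1, a general corepressor gene, stood at 0.80 with T73 and −0.41 with CLIB215, HDA2 at 0.62 with T73 and −0.41 with CLIB215, and SUM1, a repressor of meiotic genes, at 0.39 with T73 and −0.63 with CLIB215. HDA1, the catalytic partner of Hda2, was the lowest of this list at −0.59. Of the histone genes 10 of 11 lay above 0, with a median of 0.25 and none past the rule; copies of the same histone are near-identical.

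The other columns, named here by their titles, give a frame for both values. The 3 RXT3 columns span a range for each ORF. Over all 4956 ORFs, 50% of T73 values and 66.2% of CLIB215 values lay outside that range, so values outside it were common in both columns. The alleles took opposite sides of it in 810 ORFs (16.3%). RXT3 itself stood at −0.05 in the column titled RXT3 deleted, inside the span of its other values (−0.36 to 0.23).

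The 220 higher ORFs had medians of 0.45 in the T73 column and −0.83 in the CLIB215 column, with −0.31 in the column titled PHO23 deleted and 0.17 to 0.25 in the RXT3 columns. The 216 lower ORFs had medians of −0.52 in the T73 column and 0.76 in the CLIB215 column, with 0.44 in the column titled PHO23 deleted and −0.26 to 0.09 in the RXT3 columns. These ORFs were chosen by the T73 and CLIB215 values, so the distance between those medians follows from the choice. The value titled PHO23 deleted lay nearer to CLIB215 than to T73 in 58.2% of the higher and 79.6% of the lower ORFs. Over all 4956 ORFs this share was 57.8%. The gluconeogenesis and glyoxylate genes had medians of 0.90 with T73 and −0.44 with CLIB215, with −0.53 in the deletion column and 0.17 to 0.53 in the RXT3 columns. The large-subunit assembly genes had −0.18 with T73 and 0.57 with CLIB215, with 0.57 in the deletion column and −0.26 to 0.15 in the RXT3 columns.

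**Figure D5:**
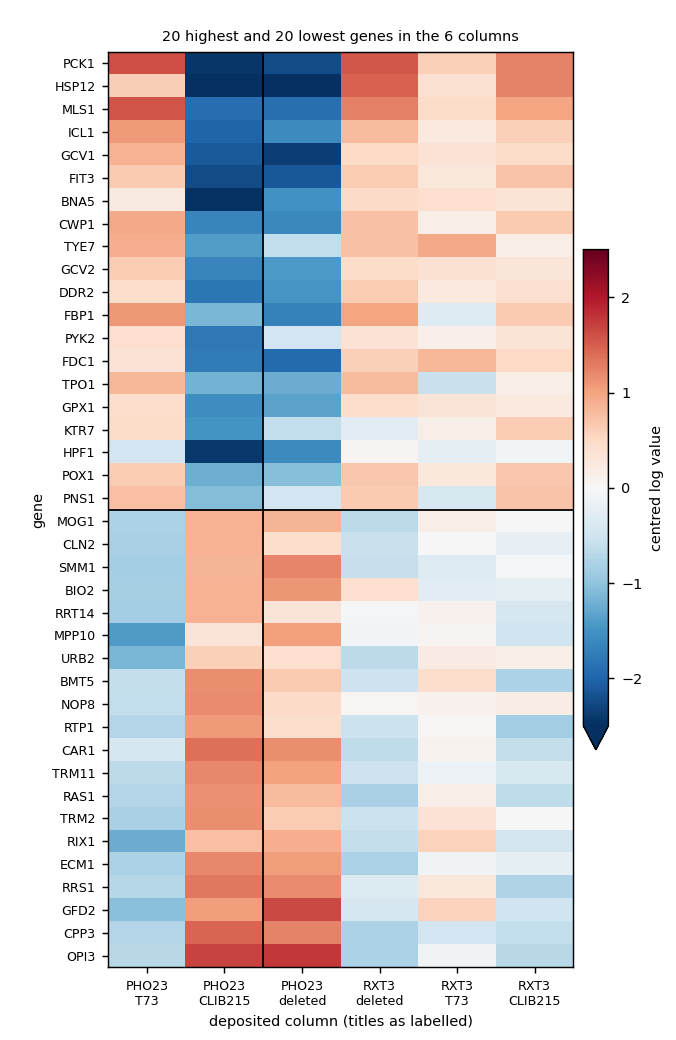
Centred log values (colour) of the 20 highest and 20 lowest named genes in the 6 deposited columns, PHO23 T73 leftmost, the vertical line separating the pair compared; HSP12 lies below the colour scale in the PHO23 CLIB215 and deleted columns. In the upper block the CLIB215 values are all negative, from −1.08 for PNS1 to −3.34 for HSP12, and in the lower block all are positive, from 0.33 for MPP10 to 1.69 for OPI3. The genes were chosen by the difference between the pair, so these signs largely follow from the choice.

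The alleles of the same strains at RXT3 share no column with the PHO23 pair, but which columns hold them depends on the label. By the titles, 109 ORFs (2.2%) passed the size rule in either direction at RXT3, against 436 (8.8%) at PHO23. By the genotype field, which places the T73 allele in the column titled RXT3 CLIB215 and the CLIB215 allele in the one titled PHO23 deleted, 457 (9.22%) did. Across the 4956 ORFs, which are not independent, the T73 minus CLIB215 differences at PHO23 and at RXT3 had a Pearson r of −0.15 by the titles and 0.47 by the genotype field. Large-subunit assembly genes, with a median of −0.81 at PHO23, had 0.38 at RXT3 by the titles and −0.76 by the genotype field. Of the 216 ORFs lower at PHO23, 166 (76.9%) lay above 0 at RXT3 by the titles and 29 (13.4%) by the genotype field. Over all ORFs these shares were 51.6% and 50.7%. The direction at RXT3 relative to PHO23 thus rests on the choice of label. PHO23, which had no value in the column titled PHO23 deleted, stood at −0.07 in the column titled RXT3 T73, which the genotype field calls PHO23 deleted.

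Medians varied little with position in the genome, while ORFs near chromosome ends passed the rule more often in both directions. Chromosome medians ran from −0.06 on chromosome XIV, which carries PHO23, to 0.14 on chromosomes I and V. Of 148 ORFs within 30 kb of a chromosome end, 16 (10.8%) were higher and 11 (7.43%) lower, against 4.27% and 4.29% of the 4710 ORFs farther in, while their median was 0.08. Of 4133 pairs of adjacent complete ORFs 40 had both members past the rule, 19 in the same direction and 21 in opposite ones. The 19 include CUP1-1 with YHR054C and CUP1-2 with RSC30, whose differences are identical and are 1 measurement. Of the 7 divergent pairs 5 went the same way, as did 4 of 8 convergent pairs and 10 of 25 on the same strand. Among the 5 were OPI3 and MOG1, PUS1 and NIP7 (−1.36 and −1.37), and FCF2 and IES3 (−1.44 and −1.08). MLS1 and DMA2, 318 bases apart on the same strand, stood at 3.46 and −1.47. Coding length was alike, with medians of 1278 bases for the higher, 1296 for the lower and 1254 for all ORFs.

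Some ORFs fall outside the comparison. A further 186 had a value in both allele columns but lacked another. Of these 186, 8 were higher and 10 lower by the rule, beside 4.44% and 4.36% of the 4956 ORFs compared. Besides PHO23, those past the rule include the glycerol transporter gene STL1, at 0.08 with T73 and −1.64 with CLIB215. They also include YLR108C, at −1.37 with T73 and 1.26 with CLIB215. A value only with T73 was found for 235 ORFs and a value only with CLIB215 for 127. Among ORFs with a value in all of the other 4 columns these numbers were 58 and 21. The 58 include CTA1, the peroxisomal catalase gene, SAG1, the alpha-agglutinin gene, and EPL1, a subunit gene of the NuA4 acetyltransferase, and the 21 include DBP6 of ribosome assembly and RNT1, the RNase III gene. What minimum a value required is not given in the sources used here.

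At the border of the size rule stood the glutamate and aspartate permease gene DIP5 (1.003) and the phospholipase gene PLB1 (1.01) just inside and ATG8 (0.99998) and HEM25 (0.997) just outside on the higher side. On the lower side CRH1 and DIA2 lay just inside and AVO1 and KRE33 just outside, each at −1.0 after rounding.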

How the data were processed

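RNA of 18 libraries in 6 groups of 3 was sequenced; per the labels' protocols, polyadenylated RNA was selected and copied with primers carrying molecular identifiers. The aligner was Bowtie and the build R64, per the submitters' processing notes. How genes were counted, with or without strand, normalized and centred is not given in the sources used here. The authors deposited 1 table of log values, read here as log2, with 1 column per group. It holds no counts, so depth is unknown and no interval or floor can be given. Of 208 ORFs with a value in 1 column only, 126 were exactly 0 (tolerance 1e-06) and the rest were not. Centring per ORF is inferred from these zeros. The centre is taken as 0, and it need not be the mean or median of the columns.

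Columns were matched to groups by sample title. Differences (T73PHO23 minus CLIB215PHO23) were computed with Python 3.11.15, pandas 2.3.3 and numpy 2.4.6 for ORFs with a value in all 6 columns, correlations with scipy 1.17.1 and figures with matplotlib 3.10.9. No filter or pseudocount was applied. ORF names and positions came from the RefSeq R64 annotation, which held 4858 of the 4956 ORFs. Promoters are the 300 or 600 bases before the start codon. The calculations were checked on simulated data. The design has no test.

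Members, the 60 gene lists and the size rule were chosen with earlier results of these data known, and some list names were corrected after differences had been seen. Named genes are the 20 highest and 20 lowest with a standard name, the list members past the size rule and up to 6 in the direction of the list median and 3 against it, all members of lists of up to 25 genes, and the surroundings of PHO23; CHO2, FET3, AFT1, TOD6, DOT6, STB3, the lowest genes with both PAC and RRPE, the members of adjacent pairs and the genes with incomplete values were chosen after their values were seen. Alternatives were other size rules, centring each column on its median, scaling the columns to 1 SD, all ORFs with a value in both columns, and, added after seeing the data, the RXT3 columns named by the genotype field or with titles exchanged. The value of 1 listed gene is not reported here.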

Additional observations from a re-analysis of the deposited data

Results flagged for a closer look

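For 3 gene lists the T73 and CLIB215 alleles differed in opposite directions at PHO23 and at RXT3 when the columns are named by their titles, and in the same direction when they are named by the genotype field. Assembly and export of the large ribosomal subunit had a median of −0.81 at PHO23 over 80 genes, with 0.38 at RXT3 by the titles and −0.76 by the genotype field. The small-subunit processome had −0.65 at PHO23 over 75 genes, with 0.37 by the titles and −0.86 by the genotype field. The tRNA modification genes had −0.48 at PHO23 over 50 genes, with 0.29 by the titles and −0.47 by the genotype field. Each locus is represented by 1 pooled value per allele, so the difference between loci was not tested, and the opposite directions hold only under the titles.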

How the results depend on the processing

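The counts followed the size rule. At 0.58 units 772 ORFs were higher and 640 lower, and at 1.5 units 45 and 46. Centring both columns on their medians moved the median of all differences from 0.06 to −0.0016 and gave 187 higher and 247 lower, and scaling them to 1 SD gave 225 and 206. Over 59 lists and these 3 alternatives (centring, scaling, all ORFs with both values), 142 of 177 medians stayed within 1.5 times of the reported one and 35 did not, and no list with a median of at least 0.1 in size changed sign. All 69 values of the 23 lists with a median of at least 0.3 in size stayed within 1.5 times. Of 177 named genes under centring and scaling, 20 of 354 differences came under the size rule and 0 changed sign. Centring shifts every difference by the same amount, less than 0.1 units here. For centring it was thus fixed in advance that the 23 lists stayed within 1.5 times. That none of these lists or genes changed sign under centring was fixed as well. The label that names the RXT3 columns was varied after seeing the data. With the titles exchanged the RXT3 medians were −0.38, −0.37 and −0.29 for the lists of large-subunit assembly, the small-subunit processome and tRNA modification, and −0.33 for the ORFs lower at PHO23. By the genotype field they were −0.76, −0.86, −0.47 and −0.64. By the titles they were 0.38, 0.37, 0.29 and 0.33. No paired analysis was possible because the table holds 1 pooled column per group, and for the same reason no replicate could be left out. Depth, base of the logarithm and replicate spread are unknown and limit every value.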
